A study of Mus musculus with 17 samples.

Results

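Chil3 and 5 other genes that are widely used to mark alternatively activated macrophages, Retnla, Mrc1, Cd163, Folr2 and Lyve1, were followed in the mouse diaphragm. These 6 of the 47643 gene symbols in the table were chosen by symbol, and Chil3 was chosen for its level in tumor-bearing mice given rFibcd1, so its values are described here without a test. The diaphragms came from 17 mice, all male C57BL/6J animals aged 4 months, with RNA sequenced from each. The Control group (n = 5) carried no tumor and received mock injections, and the Control + rFibcd1 group (n = 5) carried no tumor and received rFibcd1. The LLC group (n = 3) carried Lewis lung carcinoma, a mouse lung cancer line implanted under the skin, with mock injections, and the LLC + rFibcd1 group (n = 4) carried the same tumor and received rFibcd1. rFibcd1 is a recombinant piece of Fibcd1, a protein that muscle secretes, and it was given into the peritoneal cavity, which borders the diaphragm, in the last week of the experiment. Only the muscular part of the diaphragm was taken, and the design lists as many mice as samples. The question addressed is how the tumor and the treatment moved these genes.

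Macrophages that meet the cytokines IL-4 and IL-13 can adopt a state called alternative activation, in which the shared receptor chain Il4ra signals through the transcription factor Stat6. Chil3 (also called Ym1, a secreted chitinase-like lectin) and Retnla (also called Fizz1 or Relm-alpha, a secreted protein of the resistin family) are classical readouts of this state in mice. Mrc1 (the mannose receptor CD206), Cd163 (the receptor for hemoglobin bound to haptoglobin), Folr2 (a folate receptor) and Lyve1 (a hyaluronan receptor) mark resident macrophages along vessels and in connective tissue. None of the 6 belongs to macrophages alone. Chil3 is also made by neutrophils and their precursors, Retnla by eosinophils and fat, and Lyve1 by lymphatic endothelium. In bulk RNA, fewer cells of a type and less RNA per cell cannot be told apart.

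Chil3 lies at chr3:106147554-106167564 on the minus strand of GRCm38 and Retnla at chr16:48842551-48844461 on the plus strand. Their 250 bases before the RefSeq start (RefSeq, GRCm38.p6) are shown because these are the 2 members whose values did not overlap between LLC + rFibcd1 and Control. RefSeq promoters matched 5 of the 6 symbols, and Lyve1 had no entry. Capitals mark matches to TTCNNNNGAA, the spacing that Stat6 prefers, to TTCNNNGAA, the shorter spacing of other STAT factors, or to TATAAA, each sought on both strands.
Chil3 (chr3:106167565-106167814, minus strand): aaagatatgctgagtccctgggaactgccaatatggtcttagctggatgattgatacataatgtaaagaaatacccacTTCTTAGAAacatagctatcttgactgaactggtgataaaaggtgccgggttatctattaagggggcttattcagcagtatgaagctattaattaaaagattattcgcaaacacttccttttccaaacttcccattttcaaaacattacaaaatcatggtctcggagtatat
Retnla (chr16:48842359-48842608, plus strand): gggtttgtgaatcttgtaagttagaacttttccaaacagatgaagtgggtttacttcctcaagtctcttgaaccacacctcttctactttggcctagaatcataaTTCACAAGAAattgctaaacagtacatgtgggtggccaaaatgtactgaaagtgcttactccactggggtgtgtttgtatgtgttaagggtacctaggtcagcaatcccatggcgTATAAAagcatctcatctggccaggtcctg

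In the Retnla window, TTCACAAGAA starts 145 bases before the transcription start and a TATAAA 30 bases before it. In the Chil3 window there is TTCTTAGAA, which starts 172 bases before the start, and a TATAAA begins 3 bases before the start and runs past the printed stretch. Mrc1, Cd163 and Folr2 held none of the 3 motifs in their windows. Of 32851 mouse promoters with the 50 bases after the start included, 6.95% held TTCNNNNGAA, 8.30% TTCNNNGAA and 13.6% TATAAA. These matches describe letters, not binding.

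The table holds TPM, transcripts per 1000000, in which a gene's reads are divided by its length and every sample is scaled to the same sum. The steps of the low values gave 50.2 to 54.0 reads per sample in units of 1000000. Myofiber genes summed to between 41029 and 52791 TPM in every diaphragm, and 12 macrophage markers to between 126 and 549 TPM. The myofiber sum was 47471 to 51462 TPM in Control and 46082 to 52791 TPM in Control + rFibcd1. It was 41672 to 42972 TPM in LLC and 41029 to 47842 TPM in LLC + rFibcd1. Some libraries stood apart. Control + rFibcd1 replicate 2, Control replicate 4 and LLC + rFibcd1 replicate 4 carried liver transcripts, with Alb (albumin) at 1934, 171 and 166 TPM against at most 32 TPM in the other 14. Of a list of 20 liver transcripts, drawn up after the data were seen, 17 were higher in each of these 3 libraries than in every other mouse. Control + rFibcd1 replicate 1 was the highest of its group in Adgre1 (the macrophage antigen F4/80) at 18.1 TPM and in the serous cavity macrophage markers, whose 6 genes summed to 149 TPM against 15.1 to 33.8 TPM in the other mice of its group. The same 6 summed to 20.8 to 24.6 TPM in Control, 44.8 to 55.3 TPM in LLC and 24.8 to 52.4 TPM in LLC + rFibcd1. Of the 4 tested, 0 passed by limma in LLC against Control, beside 35.8% of all genes.

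Chil3 was scarcely detected in tumor-free diaphragm and was highest in tumor-bearing mice given rFibcd1. In the Control group it was 0.244, 0.146, 0.793, 0.221 and 0.228 TPM, which stood for an estimated 6 to 31 reads a mouse. In the Control + rFibcd1 group it was 4.21, 0.144, 0.908, 0.252 and 0.520 TPM. In the LLC group it was 1.38, 3.05 and 1.85 TPM, from 55 to 124 reads. In the LLC + rFibcd1 group it was 11.4, 9.61, 15.7 and 5.02 TPM, from 207 to 655 reads. Thus every LLC + rFibcd1 mouse was above every mouse of the other groups, and every LLC mouse was above every Control mouse. Of the 13305 genes tested, 40.2% did not overlap between LLC and Control. The share was 14.6% between LLC + rFibcd1 and LLC, and 8.88% between LLC + rFibcd1 and Control. The 2 tumor-free groups overlapped, and 1 treated tumor-free mouse (4.21 TPM) was above all 3 LLC mice.

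The mean Chil3 level was 10.5 ± 4.44 TPM (SD, n = 4) in LLC + rFibcd1, 2.09 ± 0.866 TPM (SD, n = 3) in LLC, 1.21 ± 1.70 TPM (SD, n = 5) in Control + rFibcd1 and 0.326 ± 0.264 TPM (SD, n = 5) in Control. The ratio of the group mean to that of Control was 32 for LLC + rFibcd1, 6.41 for LLC and 3.7 for Control + rFibcd1, ratios that rest on few reads in the Control mice. Without Control replicate 3, the mouse at 0.793 TPM, they were 49.9, 9.98 and 5.76. Without Control + rFibcd1 replicate 1, the mouse at 4.21 TPM, the ratio of that group was 1.4. On the log2(TPM + 1) scale, which compresses such low values, the difference from Control was 3.04 for LLC + rFibcd1 and 1.2 for LLC, and that of LLC + rFibcd1 from LLC was 1.83. All of these ratios and differences are a description, since Chil3 was chosen for its level in LLC + rFibcd1 against Control. Chil3 reached 1 TPM in 7 of 7 tumor-bearing but 1 of 10 tumor-free mice, so it entered the set of genes tested through the groups in which it is high.

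**Figure D1:**
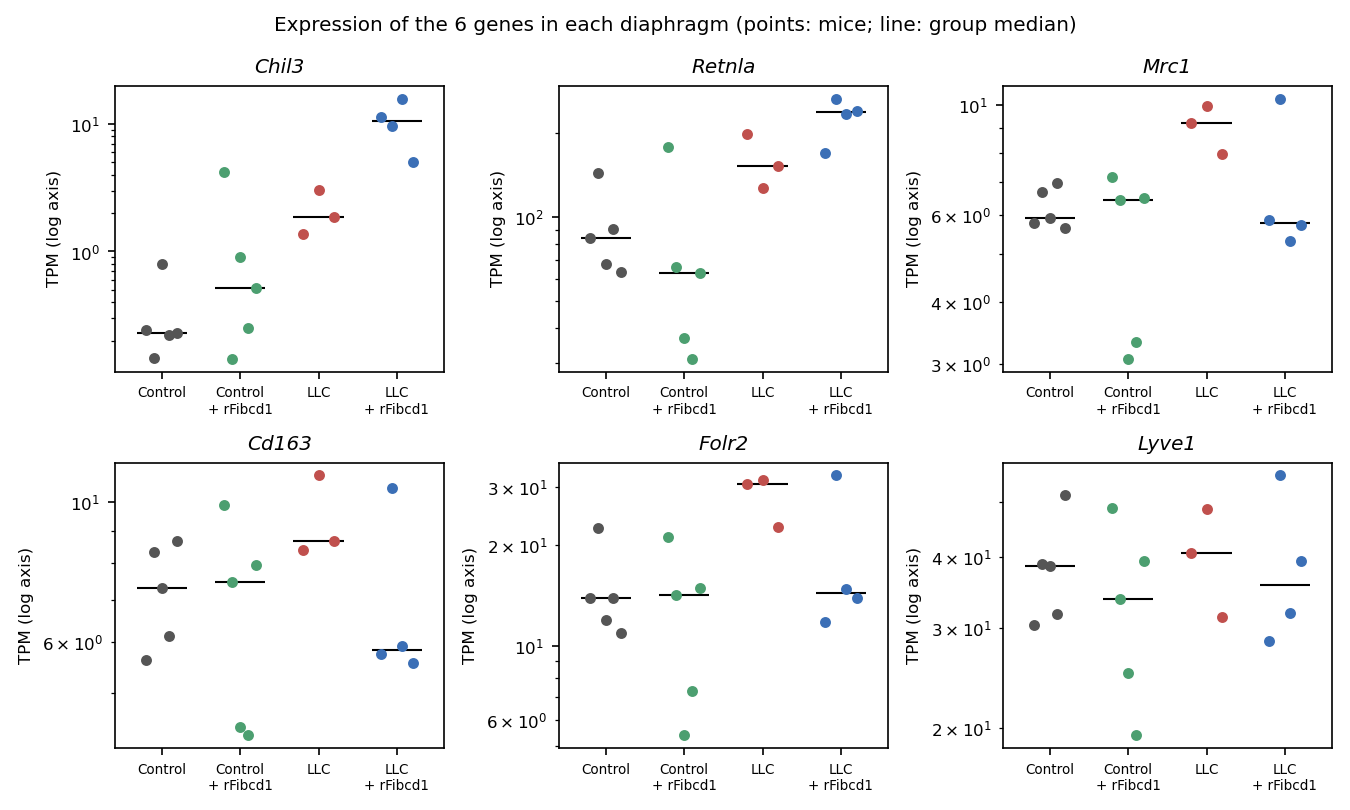
TPM of the 6 genes in each mouse on log axes, one panel a gene, with the 4 groups along the horizontal axis, a point for each mouse and a line at the group median. Chil3 in the 4 LLC + rFibcd1 mice lies between 5.02 and 15.7 TPM, above all other mice, while Retnla reaches at least 31.0 TPM in every mouse.

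Exact stretches shared with other genes were counted for each member, since such reads cannot be assigned by sequence. Of the stretches of 100 bases in Chil3 transcripts, 4.93% also occur in Chil4 (also called Ym2, its nearest paralog, 33.9 kb away on chromosome 3) or in the predicted gene Gm6522. Chil4 was at 0 TPM in 16 of the 17 mice and at 0.0252 TPM in the other, LLC + rFibcd1 replicate 3, and Gm6522 was at 0 TPM in every mouse. The other 5 members shared no such stretch with any other gene of the annotation. Reads mapped with mismatches are not covered by this count. Chil1, a secreted chitinase-like protein of myeloid cells, was at a median of 0.295 TPM in Control, 0.378 TPM in Control + rFibcd1, 0.686 TPM in LLC and 0.770 TPM in LLC + rFibcd1, below the level needed for testing. The active chitinase Chia1 had medians between 0.144 and 0.188 TPM in the 4 groups.

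Retnla was the most abundant member and rose in the diaphragm of tumor-bearing mice. It was 84.2, 143, 67.8, 90.1 and 63.6 TPM in Control and 177, 66.1, 36.7, 31.0 and 63.0 TPM in Control + rFibcd1. It was 198, 127 and 152 TPM in LLC and 169, 264, 233 and 240 TPM in LLC + rFibcd1. All 4 LLC + rFibcd1 mice were above all 5 Control mice, whereas the LLC group overlapped both Control and LLC + rFibcd1. Over the 7 tumor-bearing against the 10 tumor-free mice, Retnla was higher by 1.39 ± 0.285 (SE) on the log2(TPM + 1) scale (limma, adjusted p = 0.00305). The call held when each of the 17 mice was left out in turn, with an adjusted p of 0.000219 to 0.00774.

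Each tumor group alone did not pass for Retnla in the fit of all groups. LLC exceeded Control by 0.85 ± 0.423 (SE, limma adjusted p = 0.121) and LLC + rFibcd1 exceeded Control by 1.37 ± 0.389 (SE, limma adjusted p = 0.0692). Both passed without Control + rFibcd1 replicate 1, the mouse with 177 TPM, at an adjusted p of 0.0298 for LLC and 0.0120 for LLC + rFibcd1. LLC + rFibcd1 also passed without Control replicate 2, at an adjusted p of 0.0462. The difference of LLC + rFibcd1 from LLC was 0.51 (95% interval -0.43 to 1.46, limma adjusted p = 0.441). In tumor-free mice rFibcd1 went with a Retnla difference of -0.49 (95% interval -1.27 to 0.30, limma adjusted p = 0.927). That value was -0.87 without Control + rFibcd1 replicate 1, -0.31 and -0.25 without its replicates 3 and 4, and -0.30 without Control replicate 2, and it did not pass in any of these fits. The test of whether the 2 treatment differences differ gave 1.00 ± 0.574 (SE, limma adjusted p = 0.652).

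Within the resistin family, the members sit in different cells. Retn (resistin, a product of fat in mice) ranged from 11.9 to 132 TPM over all mice, and the sum of 5 white adipocyte markers that includes it from 68.1 to 1086 TPM. Retn itself did not pass in tumor-bearing against tumor-free mice (1.00 ± 0.486 SE, limma adjusted p = 0.103). The adipocyte sum overlapped between groups, with medians of 113, 98.8, 533 and 296 TPM in Control, Control + rFibcd1, LLC and LLC + rFibcd1, and its part in the Retnla levels was not tested. Retnlg, a product of neutrophils, rose in both tumor groups against Control, by 1.64 ± 0.574 (SE, limma adjusted p = 0.0381) in LLC and by 2.11 ± 0.527 (SE, limma adjusted p = 0.0436) in LLC + rFibcd1. Retnlb was at 0 TPM in every mouse.

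Of the receptors of resident macrophages, Folr2 and Mrc1 were at higher levels in each LLC mouse than in any tumor-free mouse, and Cd163 and Lyve1 overlapped between the groups. Over all genes tested, 40.2% did not overlap between LLC and the Control group alone. The share for LLC against all 10 tumor-free mice was not counted. Folr2 was 13.9, 22.5, 11.9, 13.9 and 10.9 TPM in Control and 21.2, 14.2, 5.38, 7.29 and 14.9 TPM in Control + rFibcd1. It was 30.5, 31.3 and 22.7 TPM in LLC and 11.8, 32.4, 14.8 and 13.9 TPM in LLC + rFibcd1. All 3 LLC mice were above all 10 tumor-free mice, but 3 of the 4 LLC + rFibcd1 mice were within the range of Control, and the 1 at 32.4 TPM was the highest of all mice.

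Over all tumor-bearing against tumor-free mice, Folr2 was higher by 0.68 ± 0.256 (SE, limma adjusted p = 0.0418). It passed in 7 of the 17 fits that leave out 1 mouse, with an adjusted p of 0.0172 to 0.106. The fits in which it did not pass left out any 1 LLC mouse, Control replicate 1, 3, 4 or 5, Control + rFibcd1 replicate 3 or 4, or LLC + rFibcd1 replicate 2. With median-ratio scaling the difference was 0.53 (limma adjusted p = 0.0795). LLC exceeded Control by 0.93 ± 0.379 (SE, limma adjusted p = 0.0662), a difference that passed without Control replicate 2, Control + rFibcd1 replicate 1 or 3, or LLC + rFibcd1 replicate 2 (adjusted p of 0.0391 to 0.0452 by limma), and LLC + rFibcd1 exceeded Control by 0.23 ± 0.349 (SE, limma adjusted p = 0.738). The difference of LLC + rFibcd1 from LLC was -0.70 (95% interval -1.54 to 0.15, limma adjusted p = 0.271). The rFibcd1 difference in tumor-free mice was -0.30 (95% interval -1.0 to 0.40, limma adjusted p = 0.927), and the interaction was -0.40 ± 0.515 (SE, limma adjusted p = 0.789). When single mice were left out, the first ranged from -0.51 without Control + rFibcd1 replicate 1 to -0.06 without its replicate 3, and the second from -0.70 without LLC + rFibcd1 replicate 2 to -0.19 without Control + rFibcd1 replicate 1, and none passed.

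Mrc1 had the pattern of Folr2 at a lower amplitude. It was 5.77, 6.68, 5.91, 6.98 and 5.65 TPM in Control, 7.16, 6.43, 3.07, 3.32 and 6.48 TPM in Control + rFibcd1, 9.21, 9.98 and 7.97 TPM in LLC, and 5.85, 10.3, 5.32 and 5.73 TPM in LLC + rFibcd1. Each LLC mouse was again above each tumor-free mouse, and the LLC + rFibcd1 group overlapped LLC only through its replicate 2. The differences were 0.48 ± 0.232 (SE, limma adjusted p = 0.113) for LLC against Control, 0.078 ± 0.213 (SE, limma adjusted p = 0.869) for LLC + rFibcd1 against Control and -0.40 (95% interval -0.92 to 0.11, limma adjusted p = 0.293) for LLC + rFibcd1 against LLC. Over all tumor-bearing mice the difference was 0.38 ± 0.157 (SE, limma adjusted p = 0.0624), which passed without Control + rFibcd1 replicate 1 or without LLC + rFibcd1 replicate 1, 3 or 4 (adjusted p of 0.0366 to 0.0487 by limma) and without the 3 libraries with liver transcripts (0.0452), and the interaction was -0.15 ± 0.315 (SE, limma adjusted p = 0.877). When single mice were left out, the interaction ranged from -0.34 without LLC + rFibcd1 replicate 2 to -0.042 without Control + rFibcd1 replicate 1. Without LLC + rFibcd1 replicate 2, the Mrc1 difference was -0.11 for that group against Control and -0.60 against LLC, and neither passed. With median-ratio scaling and with quantile normalization the Mrc1 difference fell to 0.30 and 0.20 for LLC against Control, to -0.28 and -0.20 for LLC + rFibcd1 against LLC, and to 0.24 and 0.17 over all tumor-bearing mice (limma adjusted p of 0.182 and 0.284 in the last).

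Cd163 was 5.62, 8.32, 7.31, 6.14 and 8.66 TPM in Control and 9.88, 7.46, 4.41, 4.28 and 7.94 TPM in Control + rFibcd1. It was 8.39, 11 and 8.67 TPM in LLC and 5.75, 10.5, 5.91 and 5.57 TPM in LLC + rFibcd1. The ranges of the 4 groups overlapped, and the LLC + rFibcd1 median, 5.83 TPM, was the lowest. LLC differed from Control by 0.34 ± 0.241 (SE, limma adjusted p = 0.269), LLC + rFibcd1 from Control by -0.078 ± 0.221 (SE, limma adjusted p = 0.876) and LLC + rFibcd1 from LLC by -0.42 (95% interval -0.96 to 0.12, limma adjusted p = 0.291). Over all tumor-bearing mice the Cd163 difference was 0.16 ± 0.163 (SE, limma adjusted p = 0.431). When single mice were left out, Cd163 in LLC + rFibcd1 against Control ranged from -0.27 without LLC + rFibcd1 replicate 2 to -0.0013 without its replicate 4, and over all tumor-bearing mice from 0.084 without LLC replicate 2 to 0.23 without LLC + rFibcd1 replicate 4. With median-ratio scaling and with quantile normalization the Cd163 difference was 0.16 and 0.071 for LLC against Control, and -0.29 and -0.23 for LLC + rFibcd1 against LLC. None of these passed.

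Lyve1 was 30.3, 38.9, 38.5, 31.7 and 51.4 TPM in Control, 48.9, 33.7, 25.0, 19.4 and 39.3 TPM in Control + rFibcd1, 40.7, 48.6 and 31.4 TPM in LLC, and 28.5, 55.7, 31.9 and 39.4 TPM in LLC + rFibcd1. All groups overlapped, with medians between 33.7 and 40.7 TPM. The difference between tumor-bearing and tumor-free mice was 0.16 ± 0.185 (SE, limma adjusted p = 0.508), with a 95% interval of -0.24 to 0.55. Lymphatic endothelium also makes Lyve1. The 6 lymphatic markers summed to 172 to 324 TPM in tumor-free and 208 to 400 TPM in tumor-bearing mice, and 1 of the 6, Pdpn, passed between them, beside 44.8% of all genes. Their part in the Lyve1 levels was not tested.

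Counted over the 5 members other than Chil3, none passed in LLC against Control, where 35.8% of the 13305 genes tested did. None passed in LLC + rFibcd1 against Control (3.08% of all genes), in LLC + rFibcd1 against LLC (0.113%), in Control + rFibcd1 against Control (0%) or in the interaction (0%). At an unadjusted p under 0.05 by limma, 1 of the 5 passed in LLC against Control (Folr2), beside 48.3% of all genes, and 1 in LLC + rFibcd1 against Control (Retnla), beside 19.9%. None did in LLC + rFibcd1 against LLC (22.7% of all genes), Control + rFibcd1 against Control (4.39%) or the interaction (8.58%), and 3 of 5 did in tumor-bearing against tumor-free mice (53.5%). The Dunn test gave 0 of 5 in each of the 4 pairs of groups, and 0% of all genes, after adjustment over all genes, so it says nothing of the members. In tumor-bearing against tumor-free mice 2 of 5 passed, both higher, beside 44.8% of all genes. The values of LLC and Control did not overlap for 2 of the 5 (Mrc1 and Folr2) beside 40.2% of all genes, those of LLC + rFibcd1 and Control for 1 (Retnla) beside 8.88%, and those of LLC + rFibcd1 and LLC for 0 beside 14.6%. These comparisons share samples.

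**Figure D2:**
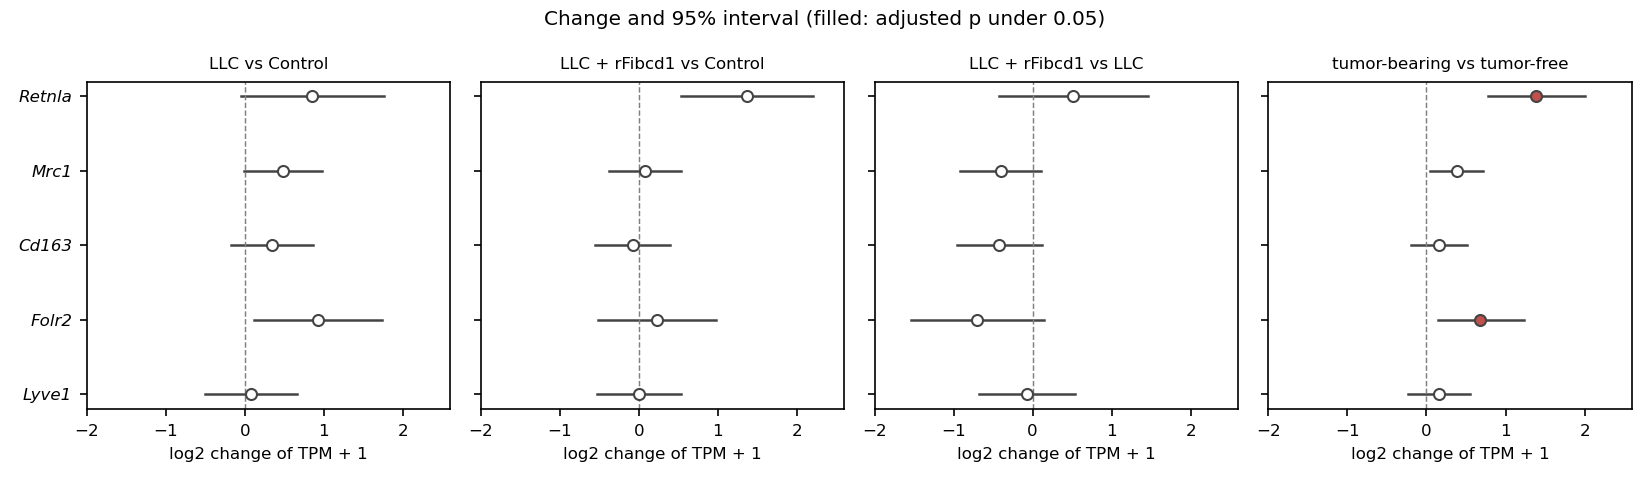
Difference in log2(TPM + 1) with its 95% interval for the 5 members other than Chil3 in 4 comparisons, with filled points where the adjusted p was under 0.05. Retnla at 1.39 and Folr2 at 0.68 are filled, in tumor-bearing against tumor-free mice, and the intervals of Retnla are the widest.

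The general macrophage markers rose with the tumor, which bears on each member. Of the 12, 10 were higher in LLC than in Control and in tumor-bearing than in tumor-free mice, where 29.7% and 38.8% of all genes were higher. By limma 0 passed in LLC + rFibcd1 against Control (2 at an unadjusted p under 0.05), where 2.07% of all genes were higher. The median change of the 12 was 1.08, 0.79 and 0.44 in these comparisons, beside 0.16, 0.13 and 0.059 over all genes. Csf1r, the receptor for the macrophage growth factor, was at 26.7 to 28.2 TPM in LLC, against 12.6 to 17.9 TPM in Control and 15.1 to 30.6 TPM in LLC + rFibcd1. The sum of the 12 ranged from 177 to 326 TPM in Control, 126 to 529 TPM in Control + rFibcd1, 461 to 549 TPM in LLC and 233 to 530 TPM in LLC + rFibcd1, and no marker was at 0 throughout. LLC + rFibcd1 replicate 2, the highest of its group in Mrc1, Cd163, Folr2 and Lyve1, was also the highest of its group in this sum.

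The members were therefore also set against the mean log2(TPM + 1) of the 12 markers in the same mouse, as a description. Chil3 lay below that mean with a median difference of -3.03 log2 units in Control, -2.48 in Control + rFibcd1, -2.79 in LLC and -0.40 in LLC + rFibcd1, whose 4 mice did not overlap the others. Retnla lay above it by 2.80 to 3.39 in Control, 2.20 to 3.2 in Control + rFibcd1, 2.53 to 3.34 in LLC and 3.64 to 4.41 in LLC + rFibcd1. So relative to the markers, no LLC mouse was above the highest Control mouse in Retnla, and each LLC + rFibcd1 mouse was above all 13 others. The mean of the markers itself averaged 4.35 in LLC and 3.83 in LLC + rFibcd1, which adds to this separation. Retnla in TPM overlapped between these groups. The share of all genes that separate in this way was not counted. Folr2 stayed near the markers, with medians of 0.50, 0.25, 0.55 and 0.31 in Control, Control + rFibcd1, LLC and LLC + rFibcd1. Lyve1 was above them by medians of 1.72, 1.81, 1.08 and 1.42 in the same order, with each LLC mouse (0.72 to 1.17) under each tumor-free mouse (1.36 to 2.63). The difference of Cd163 from the markers was -0.67 to 0.19 in Control, -0.83 to -0.20 in Control + rFibcd1, -1.07 to -0.88 in LLC and -1.16 to -0.71 in LLC + rFibcd1. That of Mrc1 was -0.83 to -0.32, -1.25 to -0.39, -1.13 to -0.95 and -1.29 to -0.68 in the same order. LLC and LLC + rFibcd1 overlapped in both.

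**Figure D3:**
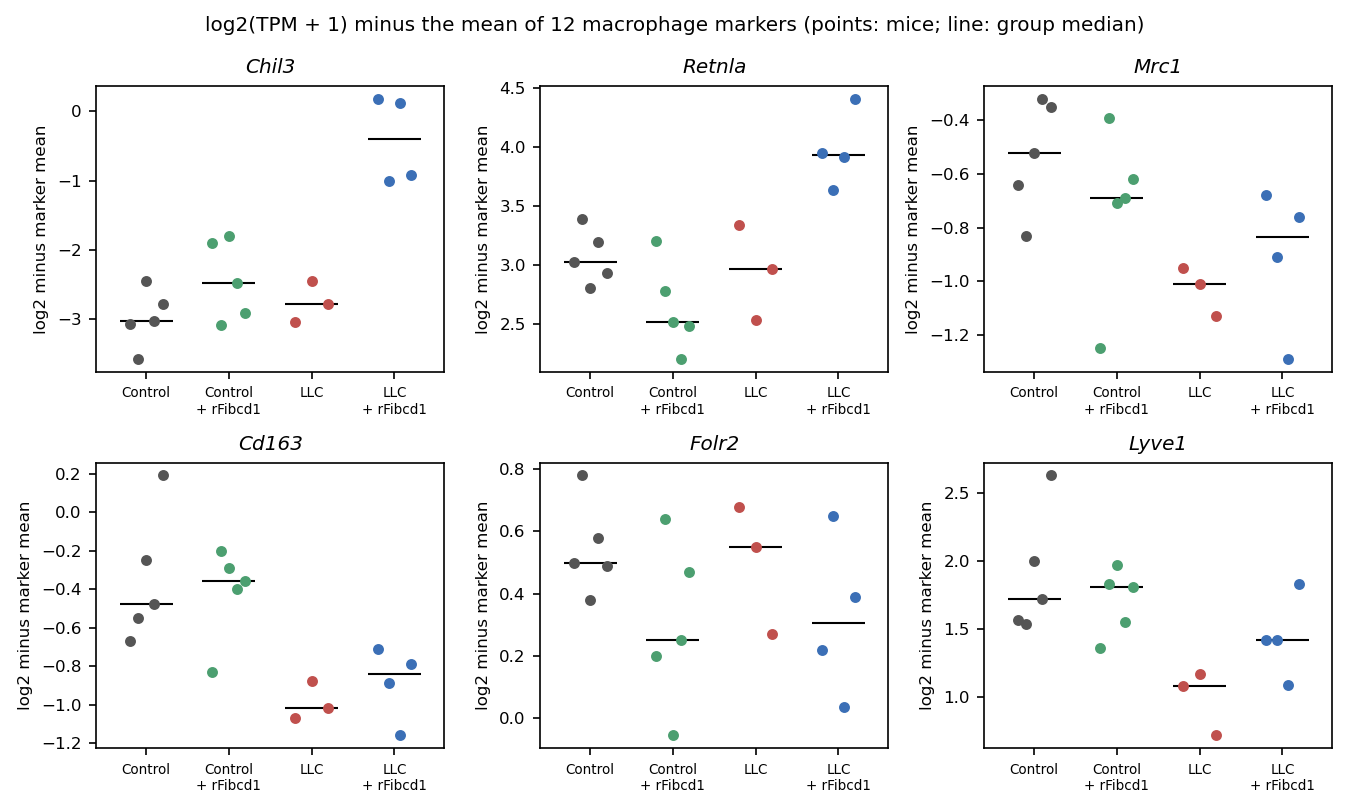
For the 6 genes, log2(TPM + 1) minus the mean of 12 macrophage markers in the same mouse, by group, with a point for each mouse and a line at the median. Chil3 and Retnla in the LLC + rFibcd1 mice, at -1.0 to 0.18 and at 3.64 to 4.41, lie above all other mice. The mean of the markers itself averaged 4.35 in LLC and 3.83 in LLC + rFibcd1.

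Markers of other cells that can make Chil3 or Retnla were measured too. Of 7 tested neutrophil markers, 6 were higher in LLC than in Control, beside 29.7% of all genes, and 5 in LLC + rFibcd1 than in Control, beside 2.07%. S100a8, an abundant calcium-binding protein of neutrophils, was 0.171 to 3.76 TPM in Control, 0.792 to 20.5 TPM in Control + rFibcd1, 12.2 to 30.6 TPM in LLC and 14.2 to 56.9 TPM in LLC + rFibcd1. The sum of all 8 neutrophil markers was 55.2 to 117 TPM in LLC and 62.3 to 223 TPM in LLC + rFibcd1, 2 groups that overlapped in it. Between them 0 of the 7 markers passed by limma, beside 0.113% of all genes, and 0 at an unadjusted p under 0.05, beside 22.7%. The part of neutrophils in the Chil3 level was not tested. Neutrophil precursor markers summed to 0.194 to 1.67 TPM in Control, 3.12 to 5.69 TPM in LLC and 1.45 to 7.31 TPM in LLC + rFibcd1. Eosinophil markers, of which Ear6 was at 0 throughout, summed to 0.0747 to 7.34 TPM in Control, 7.19 to 11.2 TPM in LLC and 0.660 to 6.07 TPM in LLC + rFibcd1. Of 2 tested eosinophil markers, 2 were higher in LLC than in Control, beside 29.7% of all genes, and 0 passed by limma in LLC + rFibcd1 against LLC, beside 0.113% (2 at an unadjusted p under 0.05, beside 22.7%).

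Mrc1, Cd163, Folr2 and Lyve1 had pairwise correlations of 0.69 to 0.95 across mice, and Retnla reached into that range. Over the 17 mice, Pearson's r on log2(TPM + 1) was 0.95 between Mrc1 and Folr2, 0.87 between Cd163 and Lyve1, 0.86 between Mrc1 and Cd163 and 0.84 between Cd163 and Folr2. It was 0.74 between Mrc1 and Lyve1 and 0.69 between Folr2 and Lyve1. Retnla had an r of 0.74 with Folr2, 0.67 with Mrc1, 0.52 with Lyve1 and 0.46 with Cd163. Chil3 and Retnla had an r of 0.74, while Chil3 with Mrc1, Cd163, Folr2 and Lyve1 had 0.12 to 0.30. These values describe points that share groups and libraries. With the mean of the macrophage markers, r was 0.94 for Folr2, 0.86 for Mrc1, 0.80 for Retnla, 0.77 for Cd163, 0.62 for Lyve1 and 0.51 for Chil3. With the mean of the neutrophil markers it was 0.79 for Chil3, 0.60 for Retnla and 0.27 to 0.40 for the other 4.

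The genes whose pattern over the 17 mice was most like that of each member differed between members. For Chil3 they were Plekhg1 (r = 0.94), Nepn, Efnb1, Tmem44 and Scgb3a1 (0.88 to 0.91). Scgb3a1, a secretoglobin made by epithelium, was at medians of 0.535, 0.939, 2.49 and 3.09 TPM in Control, Control + rFibcd1, LLC and LLC + rFibcd1. For Retnla they were Afap1l2, Cds2, Ap1m1, Tnfrsf1b and Mras (0.91 to 0.94), of which Tnfrsf1b is a receptor for tumor necrosis factor. For Mrc1 they were Cd248, Ddr2, Folr2, Dab2 and Lrp1, and for Folr2 they were Cd248, Cmtm3, Cd34, Cd209f and Timd4 (0.94 to 0.97). Cd248, Ddr2 and Cd34 are known from fibroblasts and stromal cells, Cd209f and Timd4 from resident macrophages. For Cd163 they were Axl, Srpx, Cpa3, Scara5 and Cma1 (0.91 to 0.95), of which Cpa3 and Cma1 are mast cell proteases. For Lyve1 they were Htra3, Stab1, Cd163, Islr2 and Nsg1 (0.86 to 0.91), of which Stab1 is a scavenger receptor of macrophages and lymphatic endothelium.

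Of the pathway known to act upstream of Chil3 and Retnla, the receptor chain Il4ra was higher in both tumor groups and the ligands were barely detected. Il13 was at 0 TPM in every mouse, and Il4 was at most 0.0681 TPM. Il4ra was 6.22, 7.12, 5.36, 4.65 and 6.48 TPM in Control, 7.71, 4.53, 5.22, 4.14 and 5.39 TPM in Control + rFibcd1, 11.5, 12.7 and 15.6 TPM in LLC, and 10.7, 12.7, 16.0 and 9.17 TPM in LLC + rFibcd1. Every tumor-bearing mouse was above every tumor-free mouse in Il4ra. The differences from Control were 1.04 ± 0.182 (SE, limma adjusted p = 0.00791) for LLC and 0.90 ± 0.167 (SE, limma adjusted p = 0.00975) for LLC + rFibcd1.

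Of the 15 tested genes of IL-4 and IL-13 signaling, 8 were higher in LLC than in Control, beside 29.7% of all genes, and 2 in LLC + rFibcd1 than in Control, beside 2.07%, and none was lower in either. Both in the second comparison were also among the 8, Il4ra and the kinase Jak3 (0.84 ± 0.141 SE, limma adjusted p = 0.00734, in LLC). Il2rg, the common gamma chain of the receptor, rose by 1.66 ± 0.469 (SE, limma adjusted p = 0.0175) in LLC, and Irf4, a transcription factor induced in this state, by 1.41 ± 0.462 (SE, limma adjusted p = 0.0296). Lymphocytes also express Il2rg and Irf4. All 5 B cell and all 5 T cell markers were higher in the same comparison, with median changes of 2.75 and 1.61, and their part in these changes was not tested. Stat6 itself rose by 0.54 ± 0.147 (SE, limma adjusted p = 0.0158) in LLC. In LLC + rFibcd1 against LLC 0 of the 15 passed by limma, beside 0.113% of all genes, and 4 at an unadjusted p under 0.05, beside 22.7%. The median change of the 15 was 0.54 in LLC and 0.24 in LLC + rFibcd1 against Control, beside 0.16 and 0.059 over all genes.

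Further genes of the alternative and of the resident state passed in LLC against Control at shares near or under that of all genes, of which 29.7% were higher. Of 10 other genes of alternative activation, 2 were higher in LLC than in Control, the lectins Clec10a (1.11 ± 0.351 SE, limma adjusted p = 0.0261) and Clec7a (1.12 ± 0.309 SE, limma adjusted p = 0.0165), and 0 in LLC + rFibcd1 (3 at an unadjusted p under 0.05 by limma), beside 2.07% of all genes. Of 15 genes of resident macrophages that express LYVE1, 5 were higher in LLC. Ccl8, a chemokine, had the largest change of these, 2.03 ± 0.522 (SE, limma adjusted p = 0.0137), followed by the lectins Cd209f (1.52) and Cd209g (1.44) and the phosphatidylserine receptor Timd4 (1.36). In LLC + rFibcd1 against Control, where 2.07% of all genes were higher, 0 of the 15 passed (1 at an unadjusted p under 0.05 by limma). That 1 was Ccl8 (1.61 ± 0.479 SE, limma adjusted p = 0.0798), with medians of 14.9 TPM in LLC, 12.9 TPM in LLC + rFibcd1 and 2.27 TPM in Control. In the same order the medians were 8.28, 3.80 and 2.91 TPM for Timd4. They were 12.7, 3.72 and 3.36 TPM for Cd209f and 6.55, 2.53 and 1.95 TPM for Cd209g. The 5 B cell and 5 T cell markers were higher in LLC than in Control and 0 of each passed by limma in LLC + rFibcd1 against Control, also at an unadjusted p under 0.05, beside 3.08% of all genes after adjustment and 19.9% before it.

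Of 8 tested genes of classical activation, the state opposed to the alternative one in textbooks, 4 were higher in LLC than in Control, beside 29.7% of all genes. These were Il1b, Cxcl10, Cd80 and Cd86, whereas Tnf (0.75), Socs3 (0.68), Cxcl9 (0.54) and Nos2 (-0.14) did not pass. In LLC + rFibcd1 against Control 1 was higher, Il1b, beside 2.07% of all genes. Il1b (interleukin-1 beta) rose in LLC and in LLC + rFibcd1 by 1.36 ± 0.27 (SE, limma adjusted p = 0.00942) and 1.45 ± 0.248 (SE, limma adjusted p = 0.00614). The median change of the 8 was 0.72 and 0.18, beside 0.16 and 0.059 over all genes. In LLC + rFibcd1 against LLC 0 of the 8 passed by limma, beside 0.113% of all genes, and 4 at an unadjusted p under 0.05, beside 22.7%. Their median change there was -0.58, beside -0.11 over all genes. Of the partners of single members, the haptoglobin gene Hp, whose product Cd163 binds, rose by 2.30 ± 0.829 (SE, limma adjusted p = 0.0429) in LLC. Hp did not pass in LLC + rFibcd1 against Control (0.95, limma adjusted p = 0.508) or in tumor-bearing against tumor-free mice (1.42, limma adjusted p = 0.0505). Fat also makes Hp, and the 5 white adipocyte markers had a median change of 1.72 in LLC against Control. Of these 0 passed, beside 35.8% of all genes (2 at an unadjusted p under 0.05 by limma, beside 48.3%), and their part was not tested. Cd44, a hyaluronan receptor like Lyve1, rose in LLC by 1.17 ± 0.326 (SE, limma adjusted p = 0.0168). Neither Mrc2 nor Pla2r1, the tested relatives of Mrc1, passed in tumor-bearing against tumor-free mice (0.059 and 0.074, limma adjusted p = 0.601 and 0.390).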

How the data were processed

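Mapping to GRCm38 and gene quantification were done by the authors with CLC Genomics Workbench, and the deposited values are TPM, with 47643 gene symbols and a sum of 1000000 per sample. The annotation release and the strandedness of the counting are not given in the sources used here, and the labels name a stranded library kit but the methods an unstranded one. The 13305 genes that reached 1 TPM in 3 or more samples were tested with limma 3.58.1 in R 4.3.3 on log2(TPM + 1), which understates the change of low genes, in 1 model of 4 groups with an expression trend, two-sided, with Benjamini-Hochberg adjustment over all genes and a threshold of 0.05. Tumor-bearing groups (7 mice) were set against tumor-free groups (10 mice) weighted by size. The Dunn test, which the study used after a Kruskal-Wallis test, was an alternative, here with adjustment over all genes. On simulated data for LLC against Control over 13305 genes, 60% of 50 genes changed by 0.5 log2 units and 82% of 50 changed by 1 were recovered.

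The members, lists and tests were chosen with earlier results of these data known. All 6 members reported are named (a further gene of the set is not reported here), of each list up to 4 genes with the largest changes past the threshold or genes that bear on a member, and for each member the 5 genes with the highest Pearson r. Read numbers were estimated with exon lengths of GENCODE vM21 for 45090 symbols, from the step at which 85.1% to 88.3% of low values came within 0.05 of a whole read. They cover counting error only and entered no test. Alternatives were a pseudocount of 0.1 TPM, other filters and scalings, no trend, only the groups compared, the replicate number as a block and leaving out each mouse. The labels give no batch, so none could be tested. Each sample was taken as 1 mouse, since the design gives the same number of mice and samples per group. All 17 columns were matched to samples.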

Additional observations from a re-analysis of the deposited data

Results flagged for a closer look

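Of 18 sets of values (6 members in the 3 groups of 4 or 5 mice), 7 held a mouse far from the others of its group. Chance gives about 0.9 for independent sets of normal values. The sets here are TPM of members that go together across mice, so the 7 are not separate events. LLC + rFibcd1 replicate 2 stood apart in Mrc1 (10.3 TPM), Cd163 (10.5 TPM) and Folr2 (32.4 TPM). Control + rFibcd1 replicate 1 stood apart in Chil3 (4.21 TPM) and Retnla (177 TPM). The remaining values were 0.793 TPM of Chil3 in Control replicate 3 and 22.5 TPM of Folr2 in Control replicate 2.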

How the results depend on the processing

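Retnla passed in tumor-bearing against tumor-free mice in each fit that was run. The count of 2 members there fell to 1, Retnla, with no filter on low values, median-ratio scaling, rescaling without mitochondrially encoded genes, quantile normalization and the replicate block. It was 1 to 3 when single mice were left out. With only the groups compared, the count rose from 0 to 3 in LLC against Control (Retnla, Mrc1 and Folr2) and to 1 in LLC + rFibcd1 against Control (Retnla). When single mice were left out, it was 0 to 2 in LLC against Control and 0 to 1 in LLC + rFibcd1 against Control. The 2 in LLC against Control came without Control + rFibcd1 replicate 1 (Retnla and Folr2). Leaving out the 3 libraries highest in liver transcripts, an alternative chosen after seeing the data, gave 3 members in tumor-bearing against tumor-free mice (Retnla, Mrc1 and Folr2). Among single genes in that comparison, Lyve1 turned to -0.0044 with median-ratio scaling and Cd163 to -0.042 with quantile normalization. In LLC + rFibcd1 against Control, Mrc1 turned to -0.00011 with quantile normalization and ranged from -0.11 to 0.17 over the left-out mice, and Folr2 from -0.068 to 0.39, both lowest without LLC + rFibcd1 replicate 2. None of these passed. The cause was not tested, except where fewer samples or genes entered.

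As deposited, the median change of all genes in LLC against Control was 0.16, which median-ratio scaling moved to -0.013. The replicate numbers do not pair the mice: over 22 same-numbered pairs the deviations from the group means had a median r of -0.061 (-0.459 to 0.485), and 1 of 17 mice was most like a mouse of its own number. With the replicate block 5 genes passed in LLC against Control, where 4759 passed without it. Groups of 3 to 5 mice and the few Chil3 reads in tumor-free mice limit precision.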
